A study of Mus musculus with 8 samples.

Results

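The 46 genes described here are Myc and 45 genes that build ribosomes, chosen by symbol out of the 24426 genes in a count table of mouse Th17 cells. They fall into 7 groups by role: Myc itself, 3 proteins of the box C/D snoRNP, 4 of the box H/ACA snoRNP, 7 multifunctional nucleolar proteins, 5 genes of RNA polymerase I, 15 factors of 40S subunit assembly and 11 of 60S subunit assembly. All 46 passed the filter on low counts that left 11851 genes for testing. The rule uses names only, but the list was drawn up with earlier results of these data known.

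Myc is a transcription factor that binds DNA with its partner Max at E-box motifs and is induced when T cells are activated and begin to grow. A growing cell makes ribosomes in the nucleolus: RNA polymerase I transcribes the long ribosomal RNA precursor, small nucleolar ribonucleoproteins (snoRNPs) guide its methylation and pseudouridylation, and assembly factors fold and cut it into the small 40S and large 60S subunits. Many genes of this machinery are well-known Myc targets, and their mRNA level is often read as a sign of cell growth.

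The study compared T cells of the C57BL/6J background, cultured under a condition named Th17(23) and harvested on day 4 to 5, in 4 groups with 2 libraries each. In the gain-of-function experiment, the cells carried either a vector for miR-96 or a control vector. In the loss-of-function experiment, cells lacking the miR-183/96/182 cluster (miR-183C-/-, here knockout) were set against miR-183C+/+ cells (here wild type), and neither was transduced. The protocol describes a sort for GFP-positive cells without limiting it to the transduced groups, and does not say what would carry GFP in the untransduced cells. Nor do the labels give the age or sex of the mice, how the deletion was made, or whether duplicates came from separate animals. The p-values therefore measure the spread between these libraries, which may be technical in part. Levels of Xist and of Y-linked genes, given below, differed between the duplicates of the knockout, wild-type and miR-96 groups.

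The 3 mature microRNAs of the cluster are shown because they define both perturbations. They are read from RefSeq (GRCm38.p6), written 5′ to 3′, with the seed (bases 2 to 8) in capitals.
mmu-miR-96-5p, chr6:30169506-30169528, minus strand: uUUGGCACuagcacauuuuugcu
mmu-miR-182-5p, chr6:30165962-30165986, minus strand: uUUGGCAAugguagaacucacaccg
mmu-miR-183-5p, chr6:30169711-30169732, minus strand: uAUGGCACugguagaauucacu
The seeds of miR-96 and miR-182 differ in their last base and that of miR-183 differs from miR-96 in its first. The exact complement of the miR-96 seed, GTGCCAA, was found in the annotated 3′ UTR of 1 of the 46 genes (2.17%), Wdr12, against 9.36% of 11057 tested genes with an annotated 3′ UTR. The miR-182 complement, TTGCCAA, was found in 4 of the 46 (8.7%), against 12.3% of these tested genes. The miR-183 complement, GTGCCAT, was found in 6 (13.0%), against 10.8%. In all, 10 of the 46 genes (21.7%) held at least 1 of these 7-base matches, against 26.5% of tested genes. The median 3′ UTR of the 46 genes was 637 bases long and that of the tested genes 1169 bases, so the shorter 3′ UTRs give fewer chances of a match. A match is a description of the letters and not a binding site.

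Windows of 30 bases around matches in 4 genes are shown, with the match in capitals: the only gene with a miR-96 match, and 3 miR-183 matches in genes with large differences in the knockout comparison.
Wdr12 site for mmu-miR-96-5p, chr1:60072836-60072865, minus strand: tggttatagtgGTGCCAAtgtcaaaggtgg
Wdr75 site for mmu-miR-183-5p, chr1:45823517-45823546, plus strand: aggccatggctGTGCCATgacaaagagaca
Ddx21 site for mmu-miR-183-5p, chr10:62581201-62581230, minus strand: tatgacaagctGTGCCATtttaagctctta
Noc3l site for mmu-miR-183-5p, chr19:38789294-38789323, minus strand: gccctgcagacGTGCCATagtctagtctgt
Coordinates are on GRCm38, and each window lies within 1 exon of the 3′ UTR. In knockout minus wild type, the median log2 fold change was -0.845 for the 10 genes with any match and -0.847 for the 36 with none. Nop10 also had a miR-183 match, with a log2 fold change of 0.05 there. Wdr12, a partner of Pes1 and Bop1 in 60S assembly, had 75.1 and 45.9 CPM in miR-96 cells, against 60.5 and 70.1 CPM in control-vector cells (log2 fold change -0.10 ± 0.28 SE, adjusted p in edgeR 0.946).

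Library totals lay between 7142234 and 12452656 estimated counts, and levels are given as CPM, each library's share of its TMM-scaled total. Knockout library 1 was the shallowest and stood apart in 1 more way: 55.6% of its detected genes had an estimated count that was not whole, against 6.39% to 7.41% in the other 7 libraries. The miR-96 gene itself had 7 and 2 counts in the miR-96 libraries and 0 in the other 6. The rows for miR-182 and miR-183 held 0 counts in all 8 libraries, so the polyA libraries do not check the deletion. The T cell markers summed to 2748 and 2726 CPM in knockout libraries and 2738 and 2963 CPM in wild-type libraries, and to between 2434 and 2792 CPM in the transduced ones. Of these 7 markers Cd3e rose in knockout relative to wild-type cells (log2 fold change 0.51) and Cd28 and Thy1 fell (log2 fold changes -0.70 and -0.63) at an adjusted p under 0.05 in edgeR. Il17a, the cytokine that defines Th17 cells, was present in every library, at 189.8 and 330.0 CPM with miR-96, 122 and 90.9 CPM with the control vector, 14.5 and 24.4 CPM in knockout and 165 and 261 CPM in wild type. Xist, the transcript of the inactive X, was at 0 and 144 CPM in knockout libraries and 1217 and 389.7 CPM in wild type, while 4 Y-linked genes summed to 244 and 266 CPM in knockout and 114 and 283 CPM in wild type. With miR-96, Xist was at 1082 and 166 CPM and the Y-linked sum at 111 and 330 CPM. With the control vector, Xist was at 1220 and 1480 CPM and the Y-linked sum at 1.02 and 0.0967 CPM. The part of sex in the results was not tested.

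Ribosome biogenesis genes were lower in cells lacking the miR-183/96/182 cluster. Of the 46 genes, 29 fell in knockout relative to wild-type cells and 0 rose (edgeR quasi-likelihood test, adjusted p under 0.05 over all 11851 genes), against 6.40% of all tested genes called lower and 6.63% called higher. The median log2 fold change of the 46 genes was -0.85, against -0.01 over all tested genes. In 45 of the 46 genes both knockout libraries lay below both wild-type libraries, which held for 34.9% of all tested genes. The exception was Nop10, a small protein of the H/ACA snoRNP, at 76.8 and 77.7 CPM in the knockout libraries and 65.9 and 83.05 CPM in the wild-type libraries. At an unadjusted p under 0.05, 41 of the 46 were lower, against 17.3% of tested genes, and DESeq2 called 37 lower, against 9.22%. The plot of the 46 genes by library shows this as a dark knockout 1 column, a paler knockout 2 column and wild-type columns above the mean.

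**Figure D1:**
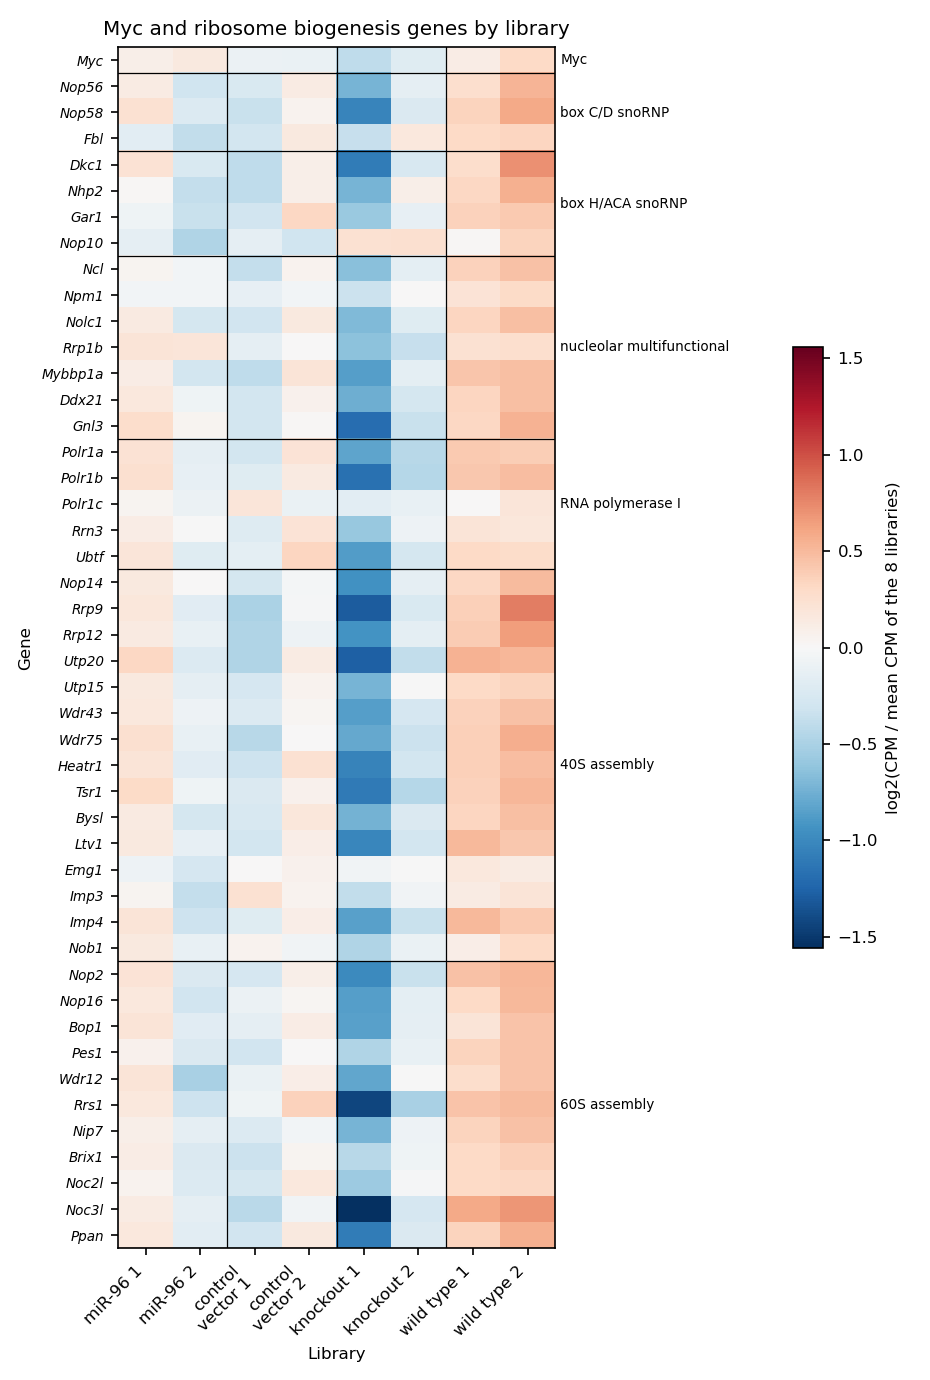
Level of the 46 genes in each of the 8 libraries, as the log2 of CPM over the gene's mean CPM across libraries (colour), with genes as rows by role and libraries as columns. Knockout library 1 was the lowest library for 43 of the 46 genes and wild-type library 2 the highest for 38.

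The calls depended on single libraries. Without knockout library 1, without wild-type library 1 or without wild-type library 2, 0 of the 46 genes passed, and over all genes 0, 20 and 1 passed. Without knockout library 2 the calls were kept. The direction stayed: the median log2 fold change was -0.56 without knockout 1, -1.18 without knockout 2, -0.93 without wild type 1 and -0.78 without wild type 2. At an unadjusted p under 0.05, 27 of the 46 passed without knockout 1 (15.2% of all tested genes), 43 without knockout 2 (34.7%), 36 without wild type 1 (22.6%) and 30 without wild type 2 (18.9%). All 46 genes were lower in knockout library 1 than in knockout library 2, with a median ratio of library 2 over library 1 of 1.51, against 0.989 over all genes. Summed over the 46 genes, the level was 7688 and 10936 CPM in knockout libraries and 15036 and 16305 CPM in wild-type libraries. With library totals as the only scaling, 24 of the 46 were called lower, and the calls over all genes were 944 higher and 570 lower, beside 786 higher and 758 lower with TMM. In bulk RNA, fewer cells of a type and less RNA per cell cannot be told apart.

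Myc (chr15:61985391-61990374, plus strand, GRCm38) was at 325 and 376 CPM in knockout cells, against 464 and 531 CPM in wild-type cells (log2 fold change -0.50 ± 0.14 SE, adjusted p in edgeR 0.0454). It was thus lower by 29.5% in knockout cells on the mean, a smaller difference than in most of the genes below. In transduced cells Myc was at 458 and 476 CPM in the miR-96 libraries and at 404 and 398 CPM in the control libraries. Both knockout libraries were below all 6 others, and the miR-96 libraries overlapped the wild-type ones. The call for Myc was close to the threshold: the adjusted p was 0.0620 with upper-quartile scaling and 0.0594 with library totals, 0.313 without knockout 1, 0.141 without wild type 1, 0.268 without wild type 2, and between 0.0543 and 0.0627 when any 1 transduced library was left out.

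Of 14 tested genes of the wider Myc network, which holds the partners and antagonists of Myc, 1 fell and 2 rose, beside 6.40% lower and 6.63% higher over all tested genes. Max, the obligate partner, was at 115 and 121 CPM in knockout cells, against 120.3 and 117 CPM in wild-type cells (log2 fold change -0.01 ± 0.12 SE, adjusted p in edgeR 0.961). Among the Mxd repressors, which compete with Myc for Max, Mxd1 was at 76.2 and 72.3 CPM in knockout cells, against 59.7 and 45.7 CPM in wild-type cells (log2 fold change 0.50 ± 0.37 SE, adjusted p in edgeR 0.373). Mxd4 was at 16.9 and 13.9 CPM in knockout cells, against 9.75 and 10.2 CPM in wild-type cells (log2 fold change 0.63 ± 0.34 SE, adjusted p in edgeR 0.219). Mxd3, the member linked to dividing cells, rose to 23.9 and 17.2 CPM in knockout cells, against 5.85 and 6.64 CPM in wild-type cells (log2 fold change 1.71 ± 0.34 SE, adjusted p in edgeR 0.0270). Mxi1 rose to 153 and 142 CPM in knockout cells, against 100.3 and 79.1 CPM in wild-type cells (log2 fold change 0.72 ± 0.19 SE, adjusted p in edgeR 0.0434), and Mga, which joins a repressive complex with Max, fell to 95.2 and 124 CPM in knockout cells, against 199 and 217 CPM in wild-type cells (log2 fold change -0.92 ± 0.16 SE, adjusted p in edgeR 0.0248).

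Of the RNA polymerase I group, 3 of 5 genes fell. The catalytic core subunits were among them: Polr1b was at 41.5 and 68.2 CPM in knockout cells, against 124 and 129.5 CPM in wild-type cells (log2 fold change -1.21 ± 0.24 SE, adjusted p in edgeR 0.0269). Polr1a was at 91.03 and 119 CPM in knockout cells, against 213 and 209 CPM in wild-type cells (log2 fold change -1.01 ± 0.21 SE, adjusted p in edgeR 0.0289). Ubtf, which binds and opens the ribosomal DNA, was the third, at 178 and 268 CPM in knockout cells, against 403 and 395 CPM in wild-type cells (log2 fold change -0.84 ± 0.23 SE, adjusted p in edgeR 0.0482). Rrn3, the initiation factor that recruits the polymerase, was at 69.1 and 98.9 CPM in the knockout libraries and 119.8 and 118 CPM in the wild-type libraries and did not pass. Polr1c, a subunit shared with RNA polymerase III and the most abundant of the group per length, was at 73.7 and 76.7 CPM in knockout cells, against 83.2 and 94.4 CPM in wild-type cells (log2 fold change -0.24 ± 0.15 SE, adjusted p in edgeR 0.287). In each of these 5 genes both knockout libraries lay below both wild-type libraries.

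The snoRNP proteins were abundant and varied, and 1 of 3 box C/D and 1 of 4 box H/ACA genes fell. Nop58 and Nop56 form the scaffold on which box C/D particles are built. Nop58 was at 192 and 334 CPM in knockout cells, against 497 and 586 CPM in wild-type cells (log2 fold change -1.04 ± 0.27 SE, adjusted p in edgeR 0.0411). Nop56, the most abundant of the 3 per length, was at 274 and 408 CPM in knockout cells, against 543 and 652 CPM in wild-type cells (log2 fold change -0.81 ± 0.23 SE, adjusted p in edgeR 0.0536), just short of a call. Fbl, the methyltransferase of these particles, was at 167 and 241 CPM in the knockout libraries and 267 and 271 CPM in the wild-type libraries. Of the H/ACA proteins, Dkc1, the pseudouridine synthase, was at 96.3 and 171 CPM in knockout cells, against 246 and 333 CPM in wild-type cells (log2 fold change -1.11 ± 0.30 SE, adjusted p in edgeR 0.0434). Nhp2, a core protein of the same particle, was at 93.3 and 164 CPM in knockout cells, against 194 and 227 CPM in wild-type cells (log2 fold change -0.71 ± 0.27 SE, adjusted p in edgeR 0.107), and Gar1 was at 58.8 and 80.4 CPM in the knockout libraries and 112 and 117 CPM in the wild-type libraries. Knockout library 2 lay closer to wild type than knockout library 1 for each of these genes.

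Of the multifunctional nucleolar proteins, 5 of 7 fell: Rrp1b, Ddx21, Gnl3, Ncl and Nolc1. Rrp1b, a nucleolar protein, had the smallest p of the 46 genes, at 105 and 127 CPM in knockout cells, against 193 and 196 CPM in wild-type cells (log2 fold change -0.75 ± 0.14 SE, adjusted p in edgeR 0.0258). Ddx21, an RNA helicase of the nucleolus, was at 395 and 553 CPM in knockout cells, against 846 and 927 CPM in wild-type cells (log2 fold change -0.90 ± 0.20 SE, adjusted p in edgeR 0.0303). Gnl3 (nucleostemin), a GTP-binding protein of dividing cells, was at 80.2 and 143 CPM in knockout cells, against 227 and 266 CPM in wild-type cells (log2 fold change -1.14 ± 0.25 SE, adjusted p in edgeR 0.0309). Ncl (nucleolin), which coats the ribosomal RNA precursor, was at 1149.8 and 1629 CPM in the knockout libraries and 2316 and 2478 CPM in the wild-type libraries. Nolc1, a snoRNP chaperone, was at 193 and 275 CPM in the knockout libraries and 395 and 432 CPM in the wild-type libraries, and Mybbp1a, a nucleolar binding partner of Myb proteins, was at 291 and 476 CPM in the knockout libraries and 709.6 and 733 CPM in the wild-type libraries and did not pass. Npm1 (nucleophosmin), a histone and ribosome chaperone, had the highest level of all 46 genes per length, at a mean of 1117 RPKM (CPM per kilobase of exon), and was at 1797 and 2275 CPM in knockout cells, against 2619.8 and 2778 CPM in wild-type cells (log2 fold change -0.41 ± 0.15 SE, adjusted p in edgeR 0.0909). The most abundant gene thus had a smaller difference than most of the 46. In the plot of 9 genes the knockout duplicates of Noc3l lie far apart, while those of Nop10 nearly coincide.

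**Figure D2:**
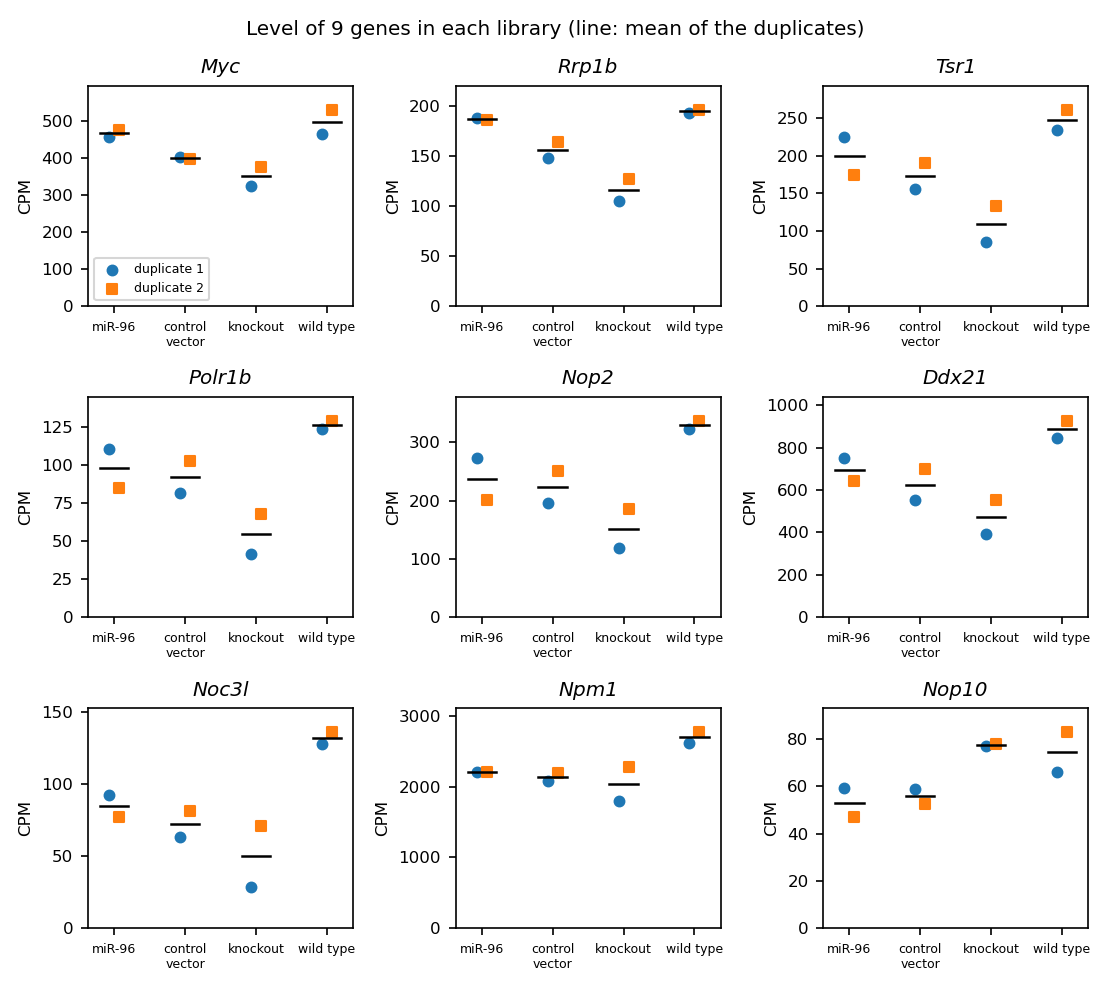
CPM of 9 genes in the 8 libraries, by group, with duplicate 1 as circles, duplicate 2 as squares and the mean of the duplicates as a line. In 8 of the 9 genes both knockout libraries lie below both wild-type libraries, and Nop10 is the exception.

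Of the 40S assembly factors, 11 of 15 fell, with a median log2 fold change of -1.02. The UTP proteins Wdr75 and Wdr43 bind the ribosomal RNA precursor as it is transcribed. Wdr75 was at 71.3 and 98.1 CPM in knockout cells, against 160.1 and 184 CPM in wild-type cells (log2 fold change -1.02 ± 0.22 SE, adjusted p in edgeR 0.0295). Wdr43 was at 134 and 202 CPM in knockout cells, against 312 and 333 CPM in wild-type cells (log2 fold change -0.94 ± 0.20 SE, adjusted p in edgeR 0.0298). Imp4, which binds the U3 snoRNA, was at 57.9 and 82.2 CPM in knockout cells, against 148 and 138 CPM in wild-type cells (log2 fold change -1.03 ± 0.22 SE, adjusted p in edgeR 0.0305). Rrp9, a U3 snoRNP protein, was at 58.3 and 121 CPM in knockout cells, against 185 and 248 CPM in wild-type cells (log2 fold change -1.27 ± 0.33 SE, adjusted p in edgeR 0.0400). Tsr1, a late cytoplasmic factor, was at 85.2 and 134 CPM in knockout cells, against 235 and 261 CPM in wild-type cells (log2 fold change -1.18 ± 0.23 SE, adjusted p in edgeR 0.0261). These genes belong to early and late steps of 40S assembly alike. Utp20, Heatr1, Rrp12, Nop14, Bysl and Ltv1 fell as well, by 0.86 (Bysl) to 1.29 (Utp20) on the log2 scale. Utp15 (log2 fold change -0.65), Nob1 (-0.48), Imp3 (-0.38) and Emg1 did not pass. Emg1, a methyltransferase and the most abundant of the group per length, was at 144 and 148 CPM in knockout cells, against 168 and 164 CPM in wild-type cells (log2 fold change -0.18 ± 0.13 SE, adjusted p in edgeR 0.343).

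Of the 60S assembly factors, 7 of 11 fell, with a median log2 fold change of -0.78. Noc3l, part of the complex that carries early 60S particles out of the nucleolus, had the largest difference of the 46 genes and also the largest ratio between duplicates, at 28.8 and 70.9 CPM in knockout cells, against 128 and 136 CPM in wild-type cells (log2 fold change -1.40 ± 0.34 SE, adjusted p in edgeR 0.0351). Rrs1, which brings the 5S RNA particle into the 60S precursor, was at 40.04 and 75.8 CPM in knockout cells, against 146 and 152 CPM in wild-type cells (log2 fold change -1.36 ± 0.29 SE, adjusted p in edgeR 0.0298). Nop2, a methyltransferase of the large ribosomal RNA, was at 118 and 185 CPM in knockout cells, against 323 and 337 CPM in wild-type cells (log2 fold change -1.12 ± 0.24 SE, adjusted p in edgeR 0.0293). The knockout 2 over knockout 1 ratio was 2.46 for Noc3l, 2.07 for Rrp9 and 1.89 for Rrs1, the 3 widest of the 46 genes, while both duplicates still lay below wild type. Ppan, Nop16 and Nip7 fell as well (log2 fold changes -1.04, -0.87 and -0.77). Of the complex of Pes1, Bop1 and Wdr12, only Pes1 passed, at 121 and 156 CPM in the knockout libraries and 214 and 229 CPM in the wild-type libraries. Bop1 was at 82.8 and 135 CPM in the knockout libraries and 171 and 203 CPM in the wild-type libraries. Wdr12 was at 37.2 and 64.7 CPM in the knockout libraries and 78.5 and 88.9 CPM in the wild-type libraries. All 3 had both knockout libraries below both wild-type libraries. Noc2l, the partner of Noc3l and the most abundant of the group per length, was at 178 and 259 CPM in knockout cells, against 327 and 329 CPM in wild-type cells (log2 fold change -0.59 ± 0.21 SE, adjusted p in edgeR 0.0920), and Brix1 was at 87.5 and 113 CPM in the knockout libraries and 147 and 153 CPM in the wild-type libraries.

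**Figure D3:**
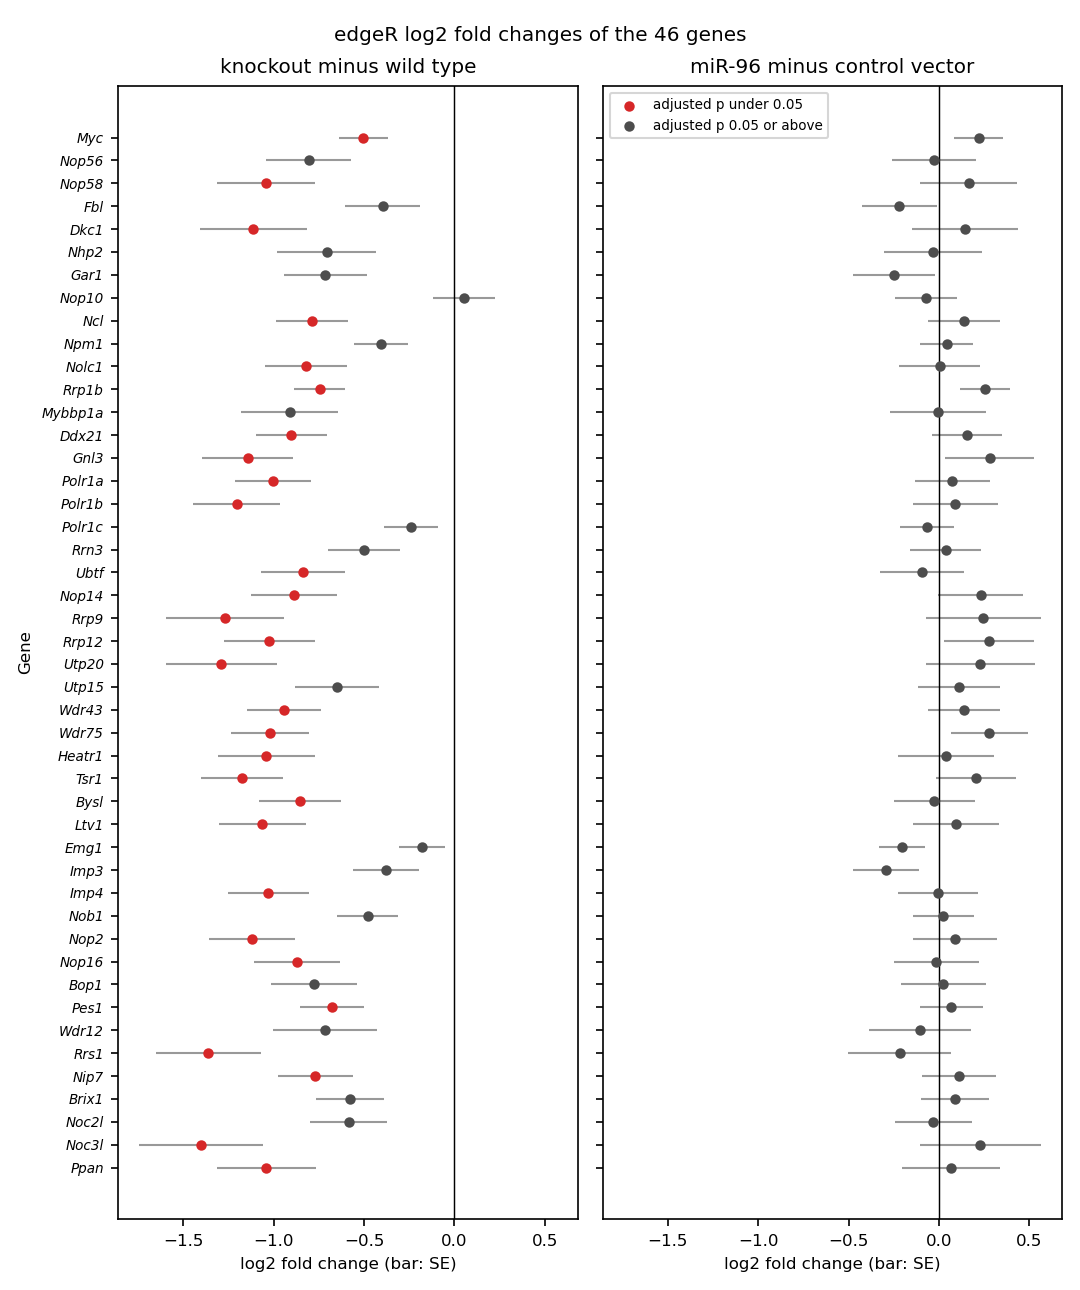
edgeR log2 fold change of each of the 46 genes (points, with the SE as bars), knockout minus wild type on the left and miR-96 minus control vector on the right. Red points passed an adjusted p of 0.05, which 29 genes did on the left and 0 on the right.

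Promoters were searched for the canonical E-box, CACGTG, which reads the same on both strands, from 250 bases before to 50 bases after the start of each gene in the RefSeq table (GRCm38.p6). Of the 46 genes 40 had an entry, and Bop1, Fbl, Myc, Npm1, Rrp12 and Rrs1 had none. The motif was found in 9 of the 40 (22.5%), against 12.1% of 9082 tested genes with an entry and 8.09% of all 27025 genes with an entry. The 9 genes were Imp4, Ltv1, Mybbp1a, Nop2, Pes1, Rrn3, Tsr1, Utp20 and Wdr43. Of these 7 fell in knockout cells, with a median log2 fold change of -1.03, and of the 31 without it 19 fell, with a median of -0.82. The difference between these medians was not tested, and a motif match is no sign that Myc bound there. The windows of 4 of the genes with the smallest p in the knockout comparison are shown with the motif in capitals.
Tsr1 promoter, chr11:74897830-74898129, plus strand: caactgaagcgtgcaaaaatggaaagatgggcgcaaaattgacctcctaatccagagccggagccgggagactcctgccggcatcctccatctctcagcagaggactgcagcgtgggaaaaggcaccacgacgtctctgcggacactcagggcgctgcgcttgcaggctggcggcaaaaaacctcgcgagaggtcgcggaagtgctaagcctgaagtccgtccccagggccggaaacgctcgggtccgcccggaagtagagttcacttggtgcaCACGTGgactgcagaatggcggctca
Nop2 promoter, chr6:125131633-125131932, plus strand: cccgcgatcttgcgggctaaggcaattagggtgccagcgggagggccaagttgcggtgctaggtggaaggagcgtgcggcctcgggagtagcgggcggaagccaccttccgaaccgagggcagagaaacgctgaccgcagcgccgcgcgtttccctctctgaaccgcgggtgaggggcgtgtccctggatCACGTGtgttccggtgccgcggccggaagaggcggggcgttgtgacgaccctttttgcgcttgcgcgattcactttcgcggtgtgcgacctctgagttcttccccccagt
Wdr43 promoter, chr17:71615965-71616264, plus strand: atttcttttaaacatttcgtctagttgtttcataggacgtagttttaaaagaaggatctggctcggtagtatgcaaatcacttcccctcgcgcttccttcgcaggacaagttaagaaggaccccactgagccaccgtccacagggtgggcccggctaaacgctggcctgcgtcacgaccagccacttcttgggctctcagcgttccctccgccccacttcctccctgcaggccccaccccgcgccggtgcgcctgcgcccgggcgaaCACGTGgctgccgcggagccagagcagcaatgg
Imp4 promoter, chr1:34439579-34439878, plus strand: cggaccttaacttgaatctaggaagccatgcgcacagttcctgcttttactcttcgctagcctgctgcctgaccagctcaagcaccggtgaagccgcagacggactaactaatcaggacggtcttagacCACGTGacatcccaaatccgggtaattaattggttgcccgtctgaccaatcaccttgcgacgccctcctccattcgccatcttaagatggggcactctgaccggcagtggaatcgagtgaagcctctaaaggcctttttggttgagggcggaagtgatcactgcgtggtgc
The motif began 121 bases before the start of Imp4 and 60 bases before that of Nop2. In Tsr1 and Wdr43 it lay within 50 bases of the start, on the transcribed side.

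Genes with a longer exonic length tended to have the larger differences, with exceptions. The 29 genes that fell had a median exonic length of 3450 bases and the other 17 a median of 1907 bases. The 29 also had the higher median level, 161 CPM against 118 CPM, and the part of level in the calls was not tested. Over the 46 genes the log2 fold change and the length had a Spearman correlation of -0.39, and over 11436 tested genes with a length it was -0.15. These are descriptions: the genes share the same 8 libraries. After subtraction of the median of all genes in the same length decile, the median log2 fold change of the 46 genes was -0.84, beside -0.85 without it. The plot of fold change by length shows Nop10, Emg1 and Polr1c, all short, nearest to 0.

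**Figure D4:**
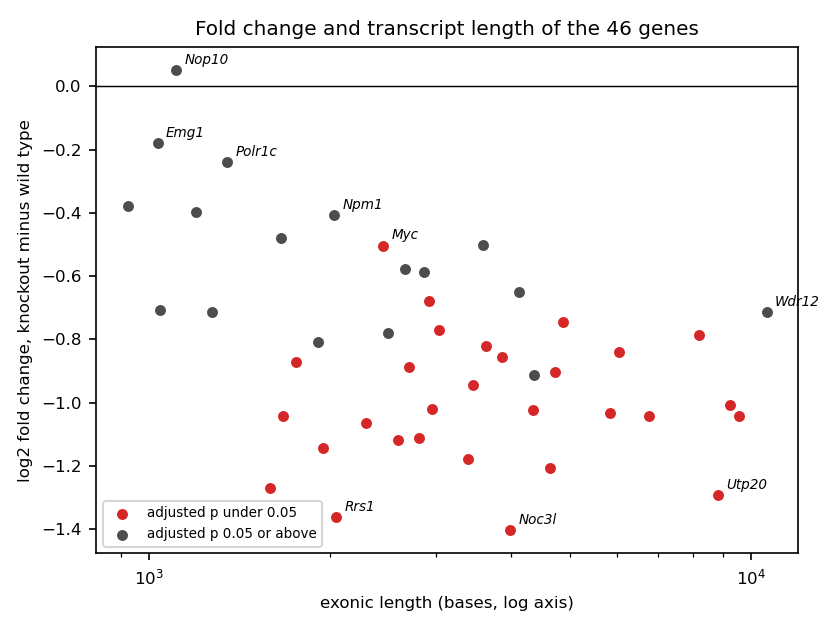
log2 fold change of the 46 genes, knockout minus wild type, against exonic length in bases on a log axis (points, red where the adjusted p was under 0.05). Nop10, Emg1 and Polr1c, all short, lie nearest to 0, but Rrp9 (1586 bases) and Rrs1 (2048 bases) lie at -1.27 and -1.36. Wdr12 is the longest at 10613 bases and lies at -0.71.

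Many assembly factors outside the 46 genes were lower as well, in a comparison where 6.40% of all tested genes were called lower and 6.63% higher. Of 37 other small subunit processome and 40S factors, 16 fell and 0 rose (median log2 fold change -0.67), among them Pno1, Nol6 and Wdr36. Of 38 other 60S factors, 18 fell and 0 rose (median -0.68), among them Gnl2 and Sdad1. Mdn1, the giant ATPase that strips factors from 60S precursors, was at 114 and 221 CPM in knockout cells, against 548 and 547 CPM in wild-type cells (log2 fold change -1.71 ± 0.31 SE, adjusted p in edgeR 0.0254), a larger difference than in any of the 46 genes. RNA polymerase III makes the 5S ribosomal RNA and the tRNAs. Of 15 genes of this polymerase and the factors that act on it, 6 fell and 2 rose. Polr3d was at 19.7 and 28.5 CPM in knockout cells, against 47.6 and 57.97 CPM in wild-type cells (log2 fold change -1.13 ± 0.21 SE, adjusted p in edgeR 0.0258). Bdp1 was at 63.7 and 111 CPM in knockout cells, against 204 and 228 CPM in wild-type cells (log2 fold change -1.30 ± 0.26 SE, adjusted p in edgeR 0.0266). The 2 that rose were Polr3gl and Maf1 (log2 fold changes 1.70 and 0.77). Of 10 further RNA polymerase I genes, Taf1a alone fell (log2 fold change -0.98).

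Over all tested genes, 6.40% were called lower, 6.63% higher and 13% in either direction in this comparison. Of 29 other textbook Myc targets outside ribosome assembly, 3 fell and 0 rose, with a median log2 fold change of -0.45. These were Srm, the spermidine synthase, at 57.3 and 103 CPM in knockout cells, against 182 and 176 CPM in wild-type cells (log2 fold change -1.16 ± 0.27 SE, adjusted p in edgeR 0.0332), and the nucleotide synthesis genes Ctps and Ppat (log2 fold changes -0.87 and -0.84). Of 13 genes of translation and growth signalling (the mTOR pathway and its targets), 0 passed. Of 20 proliferation genes, 6 rose and 0 fell, with a median of 0.54. The rise did not cover the whole list. In 7 of the 20 the log2 fold change was below 0, among them Mcm2 (-0.39), Mcm4 (-0.33) and Mcm3 (-0.03). Ccnb2, a mitotic cyclin, was at 93.1 and 62.3 CPM in knockout cells, against 14.3 and 14.6 CPM in wild-type cells (log2 fold change 2.43 ± 0.32 SE, adjusted p in edgeR 0.0246). The mitotic kinases Plk1 and Aurkb rose by 1.83 and 1.69 on the log2 scale. The calls in these lists have the same limit as those of the 46 genes, since at most 20 genes passed over the whole table without knockout 1, wild type 1 or wild type 2.

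**Figure D5:**
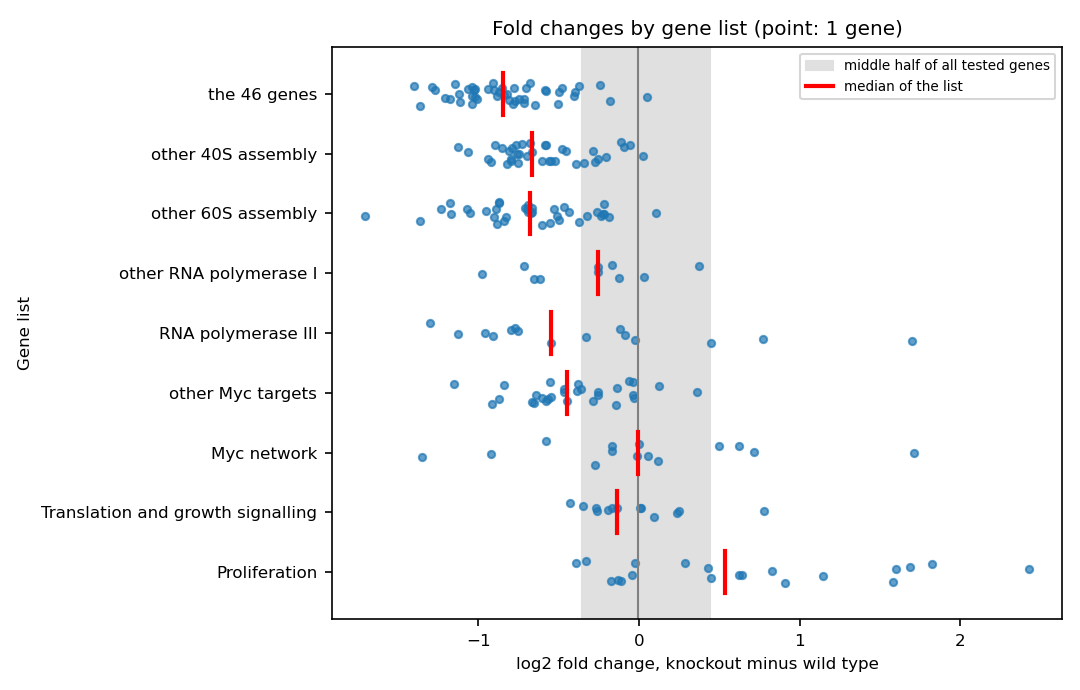
log2 fold change, knockout minus wild type, of the genes of 9 lists (points, 1 per gene), with the median of each list as a red line and the middle of the distribution of all tested genes, between its quartiles, as a grey band. The 46 genes and the other 40S and 60S factors lie mostly left of 0, and the proliferation genes mostly right of it.

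Markers of T cell subsets and of other cells moved in the same comparison, where 6.40% of all tested genes were called lower. Th17 markers summed to 207 and 238 CPM in knockout and 613 and 959.5 CPM in wild-type libraries, and 3 of 8 fell, with Il17a at 14.5 and 24.4 CPM in knockout cells, against 165 and 261 CPM in wild-type cells (log2 fold change -3.45 ± 0.37 SE, adjusted p in edgeR 0.0211). B and plasma cell markers, of which 5 of 8 tested fell, summed to 49.5 and 51.2 CPM in knockout and 123 and 201 CPM in wild type. Jchain, of plasma cells, was at 1.22 and 0.834 CPM in knockout and 24.4 and 64.3 CPM in wild type, and Foxp3, of regulatory T cells, at 0.406 and 0 CPM in knockout and 10.6 and 22.8 CPM in wild type. Regulatory T markers (3 of 5 fell) summed to 1791 and 1718 CPM in knockout and 2256 and 2512 CPM in wild type. Th1 markers (3 of 4 fell) summed to 251 and 247 CPM in knockout and 465 and 738 CPM in wild type. For both lists each knockout sum lay below each wild-type sum. Th2 markers (2 of 4 fell) summed to 17.6 and 41.9 CPM in knockout and 96.4 and 141 CPM in wild type, and CD8 and NK markers (2 of 7 tested fell) to 456 and 774 CPM in knockout and 686 and 762 CPM in wild type. Ncr1, of NK cells, was at 0 in all 8 libraries. The myeloid sums were 15.96 and 7.62 CPM in knockout and 6.82 and 8.72 CPM in wild type with 0 of 5 called, and the erythroid sums stayed under 1 CPM in every library. The part of cell makeup in the lower ribosome biogenesis genes was not tested.

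No difference of this kind was called in cells transduced with miR-96. Of the 46 genes, 0 passed in miR-96 relative to control-vector cells, where 0.110% of all tested genes passed. At an unadjusted p under 0.05 the count was also 0, against 8.70% of tested genes, and DESeq2 called 0, against 0.970%. The median log2 fold change of the 46 genes was 0.07, within a range of -0.29 to 0.28. The sign of this median depended on single libraries. It was -0.102 without miR-96 library 1 and -0.104 without control library 1. It was 0.207 without miR-96 library 2 and 0.272 without control library 2. Both miR-96 libraries lay above both control libraries for 5 genes (18.3% of all tested genes) and below both for 2 (17.6%). Within groups, 45 of 46 genes were higher in miR-96 library 1 than in miR-96 library 2, against 51.4% of tested genes, and 41 of 46 were lower in control library 1 than in control library 2, against 49.3%. The median ratio of library 2 over library 1 was 0.791 in miR-96 cells and 1.29 in control-vector cells, against 0.990 and 0.996 over all genes.

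The 5 genes with the smallest unadjusted p in this comparison include both directions. Myc was at 458 and 476 CPM in miR-96 cells, against 404 and 398 CPM in control-vector cells (log2 fold change 0.22 ± 0.14 SE, adjusted p in edgeR 0.692). Rrp1b was at 188 and 186 CPM in miR-96 cells, against 148 and 164 CPM in control-vector cells (log2 fold change 0.26 ± 0.14 SE, adjusted p in edgeR 0.640). Imp3, an Mpp10 complex protein that binds the U3 snoRNA, was at 72.2 and 53.98 CPM in miR-96 cells, against 82.3 and 72.5 CPM in control-vector cells (log2 fold change -0.29 ± 0.18 SE, adjusted p in edgeR 0.687). Emg1 was at 141 and 124 CPM in miR-96 cells, against 150.2 and 156 CPM in control-vector cells (log2 fold change -0.21 ± 0.13 SE, adjusted p in edgeR 0.688). Wdr75 was at 147 and 114 CPM in miR-96 cells, against 92.02 and 124 CPM in control-vector cells (log2 fold change 0.28 ± 0.21 SE, adjusted p in edgeR 0.753). Myc and Rrp1b were among the 5 of the 46 genes that were higher in both miR-96 libraries than in both control libraries. This held for 18.3% of all tested genes, and neither gene passed. Jchain, at 26.7 and 31.6 CPM in miR-96 cells and 0.0784 and 0.193 CPM in control-vector cells, and Foxp3, at 10.4 and 7.59 CPM in miR-96 cells and 0.157 and 0.290 CPM in control-vector cells, passed in this comparison.

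The 2 perturbations were then set against each other by testing the knockout minus wild-type fold change less the miR-96 minus control fold change. Of the 46 genes, 7 passed, all with a lower value in the knockout comparison, against 4.58% of tested genes in that direction (edgeR). DESeq2 called 23, against 7.34%. The 7 genes span nucleolar, polymerase and 40S factors. Log2 differences and edgeR adjusted p-values are given for Rrp1b (knockout minus wild type -0.75, miR-96 minus control 0.26, difference -1.0, SE 0.20, adjusted p = 0.0250), Tsr1 (knockout minus wild type -1.18, miR-96 minus control 0.21, difference -1.38, SE 0.32, adjusted p = 0.0357) and Wdr75 (knockout minus wild type -1.02, miR-96 minus control 0.28, difference -1.30, SE 0.30, adjusted p = 0.0366). The other four were Gnl3 (knockout minus wild type -1.14, miR-96 minus control 0.28, difference -1.42, SE 0.35, adjusted p = 0.0426), Polr1b (knockout minus wild type -1.21, miR-96 minus control 0.09, difference -1.30, SE 0.33, adjusted p = 0.0460), Ddx21 (knockout minus wild type -0.90, miR-96 minus control 0.15, difference -1.06, SE 0.27, adjusted p = 0.0467) and Wdr43 (knockout minus wild type -0.94, miR-96 minus control 0.14, difference -1.08, SE 0.28, adjusted p = 0.0486). Myc had a difference of -0.72 (SE 0.19, edgeR adjusted p = 0.0507) and did not pass. All of these calls were lost without knockout 1, wild type 1, wild type 2 or control library 1. The count also fell without either miR-96 library, and it rose without knockout 2.

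The 46 genes were at higher levels in wild-type cells than in control-vector cells, with no gene called by edgeR. Wild-type cells and control-vector cells differ in transduction and in experiment, which cannot be told apart, and they share libraries with both comparisons above. All 46 log2 fold changes of wild type minus control vector were above 0, with a median of 0.46, against -0.0046 over all tested genes. Both wild-type libraries lay above both control libraries for 42 of the 46, against 29.3% of all tested genes. None of the 46 passed with edgeR, where 0.228% of tested genes did. At an unadjusted p under 0.05, 18 were higher, against 8.07%, DESeq2 called 0, against 3.19%, and without a filter on low counts edgeR called 13 higher, against 2.57%.

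The genes with the smallest unadjusted p there were Rrp12, Wdr75, Pes1, Ncl and Rrp9. Rrp12, an export factor, was at 165 and 199 CPM in wild-type cells, against 91.3 and 119 CPM in control-vector cells (log2 fold change 0.79 ± 0.25 SE, adjusted p in edgeR 0.204). Wdr75 was at 160.1 and 184 CPM in wild-type cells, against 92.02 and 124 CPM in control-vector cells (log2 fold change 0.67 ± 0.21 SE, adjusted p in edgeR 0.207). Pes1 was at 214 and 229 CPM in wild-type cells, against 136 and 168 CPM in control-vector cells (log2 fold change 0.54 ± 0.18 SE, adjusted p in edgeR 0.215). These genes were higher in each wild-type library than in each control library. Ncl was at 2316 and 2478 CPM in wild-type cells, against 1397 and 1879 CPM in control-vector cells (log2 fold change 0.55 ± 0.20 SE, adjusted p in edgeR 0.248). Rrp9 was at 185 and 248 CPM in wild-type cells, against 101 and 141 CPM in control-vector cells (log2 fold change 0.84 ± 0.32 SE, adjusted p in edgeR 0.260). Myc was at 464 and 531 CPM in wild-type cells, against 404 and 398 CPM in control-vector cells (log2 fold change 0.31 ± 0.14 SE, adjusted p in edgeR 0.302).

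Across all 8 libraries, the median log2 level of the 46 genes relative to each gene's mean placed wild type 2 highest (0.50), followed by wild type 1 (0.38), miR-96 library 1 (0.21), control library 2 (0.13), miR-96 library 2 (-0.11), knockout 2 (-0.12), control library 1 (-0.21) and knockout 1 (-0.74). Knockout 2 thus lay among the 4 transduced libraries, which spanned 0.21 to -0.21. Knockout 2 lay within the range of the 4 transduced libraries for 30 of the 46 genes, against 56.4% of all tested genes, and below all of them for 13, against 21.8%. Knockout 1 was below all 4 transduced libraries for 43 of the 46, against 30.7% of tested genes. Wild type 1 was above all of them for 40, against 21.7%, and wild type 2 for 43, against 27.8%.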

How the data were processed

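RNA was extracted with TRIzol and polyA libraries were made with a NEBNext Ultra kit, per the labels' protocols. Per the submitters' processing notes the build was mm10 and the tools were STAR 2.3.0, bcl2fastq 2.16.0.10, edgeR and Partek, with no roles given. The authors deposited estimated counts per gene for 8 libraries, which were not normalized, and the annotation and strand setting behind them are not given in the sources used here, so overlapping genes and near-identical copies may share reads. Of 24453 rows, 27 with a date in place of a symbol were left out of totals and tests (at most 0.243% of a library).

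The deposited estimated counts were rounded, filtered with filterByExpr (minimum count 10, minimum total 15) and scaled with TMM. edgeR 4.0.16 in R 4.3.3 fitted 1 mean per group to all 8 libraries (4 residual degrees of freedom, common dispersion 0.0354), and quasi-likelihood F tests were adjusted by Benjamini-Hochberg over all 11851 genes at 0.05. CPM and RPKM use TMM-scaled totals, and RPKM the union of GENCODE M21 exons. The pipeline was tested on simulated counts. With 2 libraries a group, precision is limited by the spread between duplicates.

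The 46 genes, the other lists and the markers were chosen with earlier results of these data known, and no list was tested as a set. Genes given in full are Myc, the 10 called genes with the smallest p in a contrast (5 by unadjusted p where fewer than 5 were called), the most abundant of each role per length, the 3 with the largest ratio between duplicates, up to 3 called genes of each other list, and the Max and Mxd genes. Other genes named beside them were chosen after their values were seen. The naive T cell markers are not reported here. Alternatives were DESeq2 1.42.0, other scalings, other filters, a replicate block, the 4 libraries of a contrast alone and each library left out.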

Additional observations from a re-analysis of the deposited data

Results flagged for a closer look

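The knockout and miR-96 comparisons differed by edgeR's test of the difference itself in 7 of the 46 genes. Each had a lower value in the knockout comparison, a direction called for 4.58% of all tested genes. On the log2 scale the difference was -1.42 for Gnl3, -1.38 for Tsr1, -1.30 for Wdr75, -1.30 for Polr1b, -1.08 for Wdr43, -1.06 for Ddx21 and -1.0 for Rrp1b. In each of these genes both knockout libraries lay below both wild-type libraries, which also held for 45 of the 46 genes and for 34.9% of all tested genes. The 7 calls were lost when knockout 1, wild type 1, wild type 2 or control library 1 was left out. Transduction and experiment differ between the 2 comparisons and cannot be told apart.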

How the results depend on the processing

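Each alternative was run for those of the 46 genes that the rule names in a contrast, 5 in miR-96 minus control vector, 19 in knockout minus wild type, 8 in the difference and 6 in wild type minus control vector, and none of these changed direction in that contrast. The single genes outside the 46, Max among them, were not refitted one by one. Of the values for single genes, 80 of 80 kept their side of the threshold in miR-96 minus control vector, 245 of 304 in knockout minus wild type, 73 of 120 in the difference of the contrasts and 91 of 96 in wild type minus control vector. Without a filter on low counts, edgeR called 466 genes in miR-96 minus control, 3151 in knockout minus wild type, 2534 in the difference with 33 of the 46, and 1108 in wild type minus control with 13 of the 46. DESeq2 called 115 genes in miR-96 minus control, 1674 in the difference with 23 of the 46, and 378 in wild type minus control. With only the 4 libraries of the contrast the counts were 8 genes in miR-96 minus control, 2641 in knockout minus wild type and 94 in wild type minus control, and the difference could not be fitted. The cause of these changes was not tested.

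Leaving out 1 library at a time gave 0 to 125 genes in miR-96 minus control, 0 to 1975 genes and 0 to 38 of the 46 in knockout minus wild type with a median of -1.18 to -0.56, 23 to 1613 genes and 0 to 28 of the 46 in the difference with a median of -1.23 to -0.59, and 2 to 77 genes in wild type minus control. A lone library was assumed to vary like the other groups.

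Deviations of same-numbered libraries correlated at -0.22 for miR-96 and control, 0.095 for knockout and wild type, and -0.0048 for wild type and control. With 2 libraries a group, these values cannot settle whether the numbers of the duplicates pair the samples. A replicate block called 25 of the 46 and 1320 genes in knockout minus wild type, and 65 genes in wild type minus control. A crossed pairing, added after seeing the data, called 18 genes in miR-96 minus control, 509 genes with 4 of the 46 in knockout minus wild type, and 599 genes with 1 of the 46 in the difference.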
